A study of Bos taurus with 2 samples.

Results

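The genes of the milk fat globule membrane were compared between mammary tissue of cows with mastitis and normal mammary tissue. The group holds 8 of the 17376 genes named on the array, namely BTN1A1, XDH, PLIN2, MUC1, MUC15, MFGE8, CD36 and FABP3. Its 22 probes, of 43653 in all, were chosen because the files or the RefSeq entry of the probe gave them 1 of these names, and 2 of them now belong to LOC518526, a neighbour of CD36. Both tissues came from adult female Chinese Holstein cows in late lactation. The mastitis group had clinical disease and antibiotic treatment, the normal group neither, so the effects of disease and drug cannot be told apart. The study had 3 cows per group, whereas the files hold 1 array per tissue and do not name the cow or cows behind it. Every difference below is thus between 2 arrays without replicates, and p-values are not given.

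Milk fat leaves the secretory cell of the mammary gland as droplets of triglyceride wrapped in the apical plasma membrane, and this wrapping is the milk fat globule membrane. Butyrophilin (BTN1A1) spans the membrane, binds the enzyme xanthine oxidoreductase (XDH) on its inner side and meets the droplet coat protein perilipin 2 (PLIN2). In mice, lipid droplets are not secreted normally when Btn1a1 is lost or Xdh is reduced. Mucins and the secreted adhesion protein lactadherin (MFGE8) cover the outer face of the globule, while CD36 and the fatty acid binding protein FABP3 serve the uptake and transport of fatty acids in many cell types.

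Both arrays, read in 1 colour (Cy3), shared a slide and a scan, and a net signal is the spot intensity less the background that the scanner software took from negative controls. To count as well above background, a probe needed a net signal above 7.10 in mastitis tissue and 8.74 in normal tissue, which lies 2.6 SD above the mean net signal of 153 negative controls. That mean was 0.0131 for mastitis and 1.95 for normal, so on the normal array it was above 0 after the subtraction, and the SDs were 2.73 for mastitis and 2.61 for normal. This held for 70.2% of probes in mastitis tissue and 67.0% in normal tissue, and 12473 genes had a probe measured on both. The log2 ratio of a probe is mastitis over normal after division of each array by its 75th percentile (net signals of 210.0 and 128.0), and genes take the average of their measured probes. A gene is called lower or higher where the 2 arrays were 2-fold or more apart, a threshold used in the study. The SD given with it is over probes, and it is technical. The pooled SD was 0.45 over probes of a gene and 0.17 over replicate spots of 41 probes. All 18 epithelial markers with a probe were measured in both tissues, but LALBA, which encodes the milk protein alpha-lactalbumin, had a net signal of 2 on the mastitis array, below its threshold, and 57769 on the normal array.

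Of the 8 genes of the milk fat globule membrane, all were measured, 7 were called lower on the mastitis array, none was called higher and CD36 was within 2-fold. Over all measured genes, 9.12% were called lower, 2.29% higher and 11.4% either way, and 88.6% lay within 2-fold. In the group 6 genes were 4-fold or more lower, a size seen in 1.94% of all genes, and 4 were 8-fold or more lower (0.738% of all genes). Of the 6, MFGE8 and PLIN2 were close to the 4-fold line and fell short of it with spike-in scaling or without scaling. The median log2 ratio was -2.75 for the 8 genes and -0.15 for all genes. FABP3 stood at rank 8 of 12473 genes from the lowest ratio, BTN1A1 at 13, MUC15 at 44, MUC1 at 62, MFGE8 at 217, PLIN2 at 241 and XDH at 292. CD36 stood apart from these at rank 3313. In whole tissue, fewer secretory cells and less RNA per cell cannot be told apart.

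**Figure D1:**
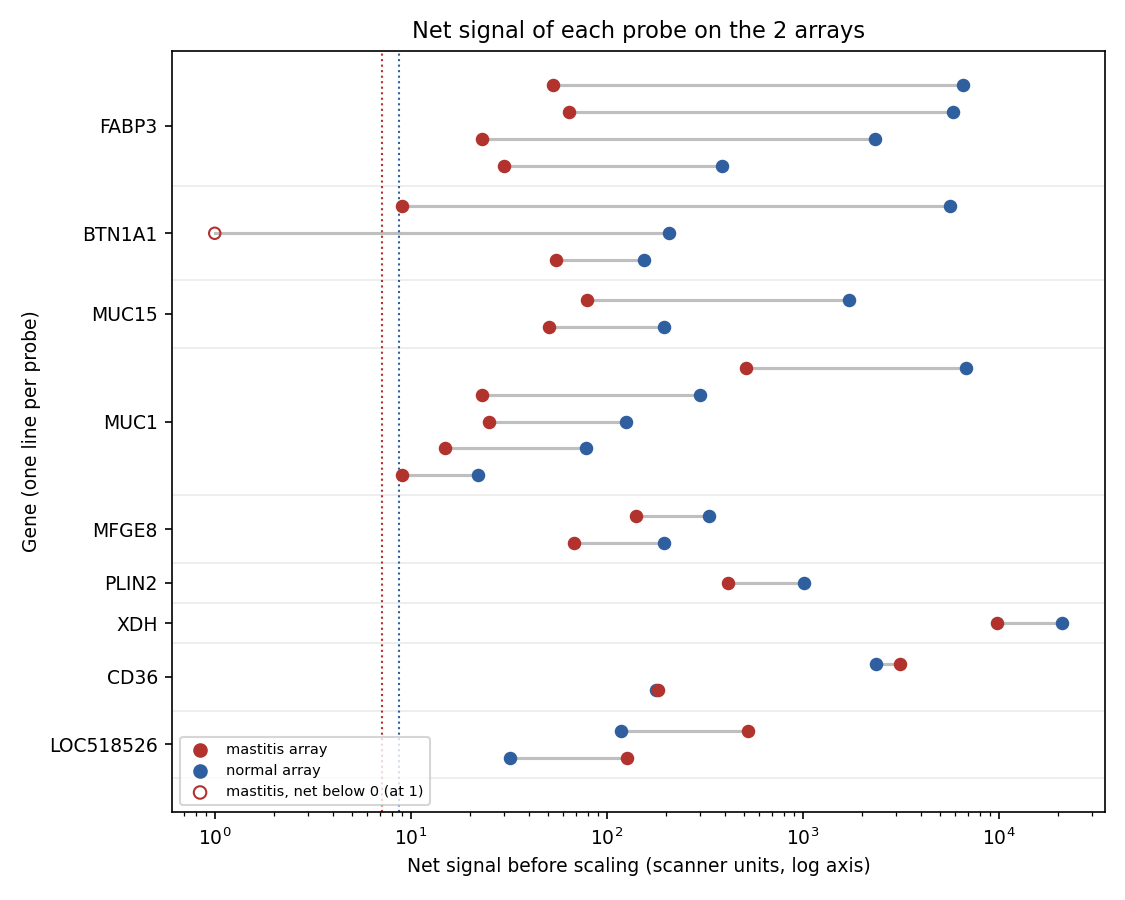
Net signal before scaling (horizontal axis, scanner units, log scale) of the 22 probes on the mastitis array (red) and the normal array (blue), grouped by gene. Dotted lines are the background thresholds of 7.10 (mastitis) and 8.74 (normal), and the open circle is a probe with a net signal of -1. The red point lies left of the blue point for every probe of the 7 lower genes, and right of it for the probes of CD36 and LOC518526.

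BTN1A1 was among the lowest genes, but its 3 probes gave very different sizes. Its first probe had a net signal of 9 in mastitis tissue and 5650 in normal tissue, a log2 ratio of -10.01 (1029.9-fold lower). The mastitis signal of this probe was 1.27 times the threshold, and moving both net signals by 1 SD of the negative controls takes the ratio to -9.63 or -10.53. The second probe had 55 in mastitis tissue and 155 in normal tissue, a log2 ratio of -2.21 (4.62-fold lower). The third was not above its threshold in mastitis tissue, with a net signal of -1, against 209 on the normal array, and was at least 42.9-fold lower. Such a bound sets the normal signal against the higher of the mastitis signal of the probe itself and the lowest mastitis signal that passed the threshold, after scaling. The 3 probes carry the same RefSeq entry and share the direction, while the mean ratio of -6.11 (SD 5.51, 2 probes) is a rough size.

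XDH, which oxidises hypoxanthine and xanthine in purine breakdown beside its role at the globule, was 3.52-fold lower. Its single probe had a net signal of 9828 in mastitis tissue and 21112 in normal tissue, far above background on both and without saturated pixels. The log2 ratio was -1.82, so the XDH signal was well measured in mastitis tissue, where that of BTN1A1 was near background for 2 of 3 probes. Of 7 measured genes of purine breakdown and export, 2 were called lower and none higher, with a median log2 ratio of -0.35. The lowest was ABCG2, a transporter that moves urate and many drugs into milk (log2 ratio -2.45, SD 0.24, 2 probes), followed by NT5E, which forms adenosine (-1.62, SD 0.33, 3 probes). PNP and APRT, which handle purine bases, had ratios of -0.35 and -0.44.

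PLIN2, the coat of the cytosolic droplet before it reaches the membrane, was 4.02-fold lower. Its single probe had 416 in mastitis tissue and 1020 in normal tissue, a log2 ratio of -2.01. Of 13 measured genes of other perilipins and droplet proteins, 5 were called lower and 1 higher. CIDEA, which in mice takes part in droplet fusion and secretion in the lactating gland, had the lowest ratio of them, -3.66 (SD 1.40, 3 probes), with mean net signals of 54.7 in mastitis tissue and 662 in normal tissue. PLIN5 had a ratio of -1.80 from a single probe and PLIN3 of -1.10 (SD 0.05, 2 probes). CIDEC, which is also in the list of adipocyte markers, had -1.61 from a single probe (29 in mastitis tissue and 54 in normal tissue). BSCL2, which encodes seipin, a protein of droplet formation, had a ratio of -1.77 (SD 0.42, 2 probes) at mean net signals of 24.5 in mastitis tissue and 45.5 in normal tissue. PLIN4 counted as above background in normal tissue alone and was at least 3.69-fold lower, at net signals near background. It had 8 on the mastitis array, where its spot was not found by the scanner software, and 18 on the normal array. HSD17B11, a dehydrogenase that sits on lipid droplets, was called higher at 1.27 (SD 0.17, 5 probes), with mean net signals of 772 in mastitis tissue and 210 in normal tissue, but was not with the normexp background correction, where no gene of the list was. The other 7 were within 2-fold, from RAB18 at -0.90 (SD 0.07, 2 probes) to PNPLA2, the lipase of stored triglyceride, at 0.48 from a single probe.

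The mucin genes were lower on the mastitis array at every probe. MUC1, a transmembrane mucin of the apical surface, had 5 probes, with net signals of 513, 23, 25, 15 and 9 in mastitis tissue, against 6798, 298, 126, 78 and 22 at the same probes in normal tissue. The probes ranged from 4.01-fold to 21.7-fold lower, and the mean log2 ratio was -3.40 (SD 1.03, 5 probes). The 2 largest differences were -4.44 and -4.41, and the smallest came from the probe with 9 in mastitis tissue and 22 in normal tissue, both near background. MUC15, a second glycoprotein of the globule surface, had net signals of 79 and 51 in mastitis tissue, against 1725 and 197 in normal tissue. Its log2 ratios were -5.16 and -2.66, with a mean of -3.91 (SD 1.77, 2 probes). In mastitis tissue the probe with 51 had a score of signal over noise of 1.52, against 20 for the other. Among other mucins, MUC20 had a ratio of -3.33 from a single probe (72 in mastitis tissue and 440 in normal tissue). MUC16 passed the threshold in normal tissue alone and was at least 4.31-fold lower (7 in mastitis tissue and 21 in normal tissue). MUC13 passed the threshold in mastitis tissue alone, with a net signal of 9 against 5 on the normal array. The other mucins of the list, MUC2, MUC4, MUC5AC, MUC5B and MUC6, had no probe assigned.

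MFGE8, the secreted glycoprotein that binds phosphatidylserine and joins dying cells to phagocytes, was 4.28-fold lower, with close values at both probes. They had net signals of 141 and 68 in mastitis tissue and of 334 and 195 in normal tissue. The log2 ratios were -1.96 and -2.23, with a mean of -2.10 (SD 0.20, 2 probes). EDIL3, of the same protein family, passed the threshold in neither tissue. Macrophages also express MFGE8, and their markers were higher on the mastitis array, as given with CD36 below.

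**Figure D2:**
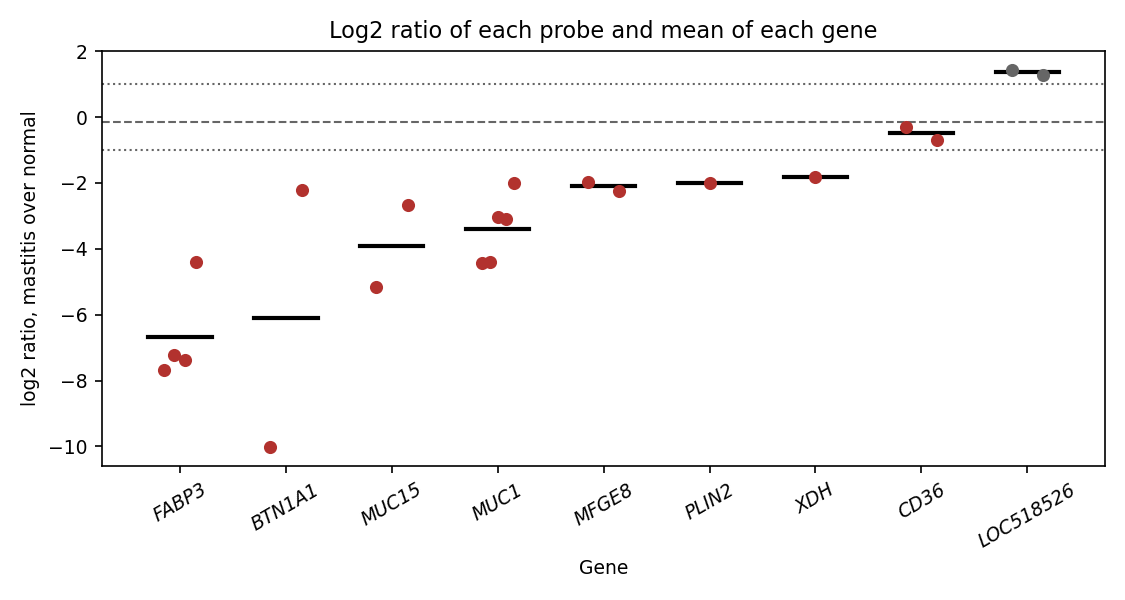
Log2 ratio of mastitis over normal (vertical axis) for each probe measured on both arrays (points) and the mean of each gene (bars). Dotted lines mark 2-fold, and a dashed line shows the all-gene median (-0.15). The bars run from -6.66 for FABP3 to -0.49 for CD36, and LOC518526, named CD36 in the files, lies at 1.36.

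FABP3, the small fatty acid carrier of heart, muscle and lactating mammary epithelium, was the lowest of the 8 genes. Its 4 probes had net signals of 53, 64, 23 and 30 in mastitis tissue, against 6565, 5815, 2327 and 385 in normal tissue. The log2 ratios were -7.67, -7.22, -7.37 and -4.40, with a mean of -6.66 (SD 1.52, 4 probes). The 3 probes that carry the RefSeq entry were between 149-fold and 203-fold lower, and the fourth, named by its symbol in the files, was 21.1-fold lower. All 4 were above the threshold on the mastitis array, at 3.24 to 9.01 times its value. Of 12 muscle markers, 5 were measured, 3 counted as above background in normal tissue alone, and MYL2, TNNC1, TNNT1 and CSRP3 did so on neither array. Beside CKM, given below, these were ACTN2 and TNNT2, at least 3.12-fold and 2.67-fold lower. ACTN2 had a net signal of 10 in mastitis tissue, at a spot not found by the scanner software, and 19 in normal tissue. TNNT2 had 6 and 13. None of the 5 measured was called higher or lower. The summed scaled signal of the measured muscle probes was 2.48 in mastitis tissue and 3.32 in normal tissue. CKM, the muscle creatine kinase, was at least 19.9-fold lower, with a net signal of 14 on the mastitis array, where its spot was not found by the scanner software, and 170 on the normal array. Its bound is set by that signal of 14.

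The relatives of FABP3 did not share its ratio. FABP4, of adipocytes and capillary endothelium, had a log2 ratio of 0.12 from a single probe (12934 in mastitis tissue and 7277 in normal tissue). FABP5, of epithelia, had -0.06 (SD 0.14, 3 probes). FABP7 had 1.26 (SD 0.38, 2 probes), at mean net signals of 83.5 in mastitis tissue and 22.5 in normal tissue. FABP1, FABP2, FABP6 and PMP2 passed the threshold in neither tissue, and FABP9 did so in mastitis tissue alone, with 10 against 4 on the normal array. The retinoid carriers of the same superfamily went from -1.11 for CRABP1 to 2.28 for CRABP2, each from a single probe.

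CD36, the scavenger receptor that takes up long-chain fatty acids, was the 1 member within 2-fold. Its 2 probes on the RefSeq entry of CD36 had net signals of 3149 and 182 in mastitis tissue and of 2351 and 179 in normal tissue. The log2 ratios were -0.29 and -0.69, with a mean of -0.49 (SD 0.28, 2 probes). The sign rests on the scaling: without it, the ratio was 0.22. The files gave the name CD36 to 2 further probes, whose accession now belongs to LOC518526, the protein-coding gene listed next to CD36 in the RefSeq table. These had net signals of 525 and 127 in mastitis tissue, against 118 and 32 in normal tissue. Their log2 ratios were 1.44 and 1.27, with a mean of 1.36 (SD 0.12, 2 probes), and LOC518526 stood at rank 114 from the highest ratio. A mean over all 4 probes named CD36 would be 0.43, which turns the direction of CD36. Probes of both genes may share sequence, which was not tested. SCARB2, of the same receptor family, had a ratio of 0.82 and SCARB1 of -0.18 (SD 1.21, 2 probes).

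CD36 is also made by macrophages, capillary endothelium and adipocytes, and markers of these cells were set beside it. Of 11 measured macrophage markers, 5 were called higher on the mastitis array and none lower. CD5L, secreted by macrophages, had a log2 ratio of 3.18 from a single probe (832 in mastitis tissue and 56 in normal tissue). The haemoglobin scavenger gene CD163 had 1.76 from a single probe (117 in mastitis tissue and 21 in normal tissue). MRC1, the mannose receptor, had 1.27 (SD 0.19, 2 probes) and C1QA, of complement, 1.08 (SD 0.04, 2 probes). The other 6 were within 2-fold, from AIF1 at 0.10 to C1QC at 0.90, each from a single probe. The summed scaled signal of the macrophage marker probes was 200.4 in mastitis tissue and 101.8 in normal tissue, and MARCO passed the threshold in neither tissue. All 11 measured endothelial markers were within 2-fold, with sums of 78.9 in mastitis tissue and 61.5 in normal tissue. The largest ratios among them were those of PECAM1 (0.76), EMCN (0.65) and KDR (0.54). Of 8 measured adipocyte markers, 3 were called lower, with sums of 77.3 in mastitis tissue and 90.5 in normal tissue, and the defining marker ADIPOQ passed the threshold in neither tissue. GPD1, of glycerol phosphate synthesis, was the lowest of them at -3.02 (SD 0.82, 3 probes), and the direction of the sums rests on it. LEP (-1.63, net signals of 9 in mastitis tissue and 17 in normal tissue) and CIDEC (-1.61) were also called lower. FABP4, at 0.12, made up most of both sums, and RBP4 had 0.78. PLIN1 and LIPE passed the threshold in mastitis tissue alone, with 11 and 13 against 3 and 8 on the normal array. PLIN4, given above, counted as above background in normal tissue alone. The part of these cells in the ratios of CD36, MFGE8 and PLIN2 was not tested.

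In the order of the 8 genes, 2 steps between neighbours were larger than the SD over probes. MFGE8, PLIN2 and XDH lay within 0.28 of each other on the log2 scale, from -2.10 to -1.82, and did not differ beyond the spread over probes, for which the pooled SD of 0.45 stands in at PLIN2 and XDH. MUC1, next below MFGE8, was 1.30 lower than it, more than either gene's SD, and CD36 was 1.33 above XDH. The step at MUC1 depends on the setting and the probe: with normexp MUC1 had -2.13 and MFGE8 -1.53, and the MUC1 probe nearest to background, at 4.01-fold lower, lay within the 3.89-fold to 4.70-fold of the MFGE8 probes. FABP3, BTN1A1, MUC15 and MUC1 had SDs between 1.03 and 5.51, and no neighbours among them differed by more than that. Their order from neighbour to neighbour is thus not resolved. FABP3 (SD 1.52) lay below MUC15 (SD 1.77) and MUC1 (SD 1.03) by more than these SDs. Its probe at -4.40 nonetheless lay above the lowest probes of MUC15 (-5.16) and MUC1 (-4.44). With net signals of at least 50 required on both arrays BTN1A1, at -2.21, was also close to MFGE8, at -2.10.

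**Figure D3:**
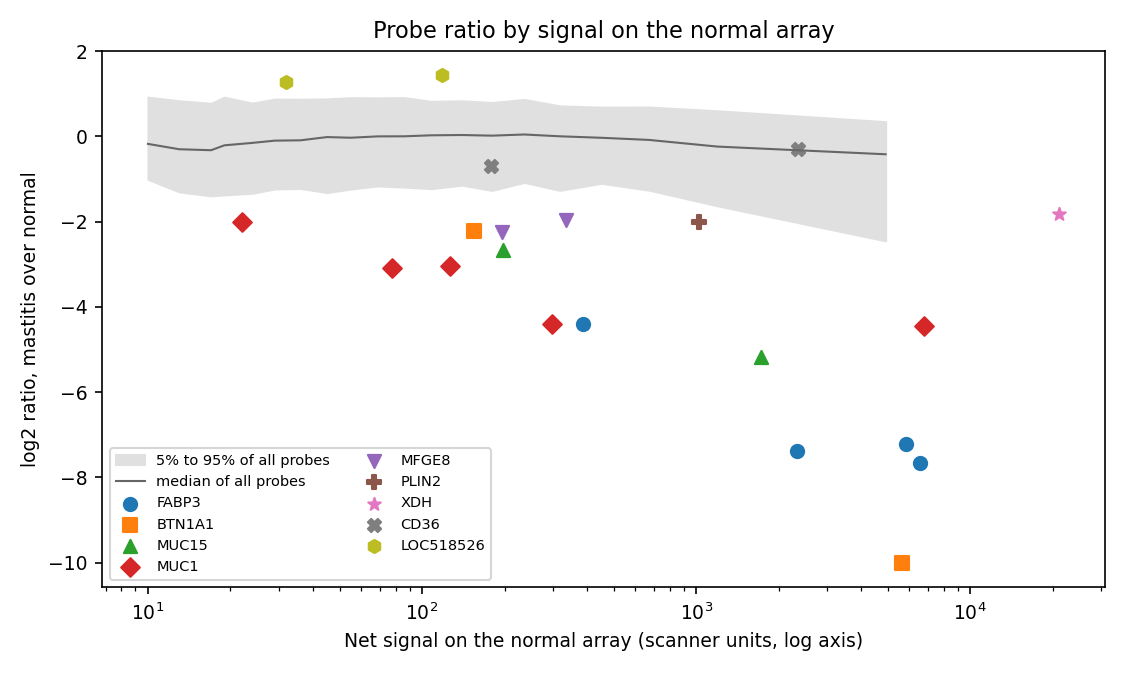
Log2 ratio of mastitis over normal (vertical axis) of the measured probes of each gene against their net signal on the normal array (horizontal axis, log scale). The grey band holds 5% to 95% of all probes in 20 bins of normal signal, drawn at the median signal of each bin, and the line is their median. Of 21 probes, 16 lie below the band of their bin, and the 2 probes of LOC518526 lie above it.

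The ratios of the group were also read beside those of all probes with a like signal. In 20 bins of the normal signal, the median ratio of all probes lay between -0.42 and 0.05. Of the 21 measured probes, 16 had a ratio below the lowest 5% of all probes with a like signal on the normal array. The probe of XDH, in the brightest bin, where the band reaches down to -2.45, and those of CD36 lay inside the band, and both probes of LOC518526 lay above it. In MUC1, MUC15 and BTN1A1 the probe with the highest signal on the normal array also had the lowest ratio. Including FABP3, this held for 4 of 6 genes of the group with 2 or more measured probes (66.7%), against 32.4% of all such genes and 40.4% of those called lower. The normal signal is part of the ratio, so these 2 quantities share their error.

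The group was set against a list of partner genes, named for supply and release of the globule, and against epithelial markers. The partner list also held milk protein genes (CSN2 and LALBA), regulators of lactation (PRLR, STAT5A and ELF5) and the receptor genes PIGR and FOLR1. Of 32 measured partner genes, 17 were called lower on the mastitis array and none higher, with a median log2 ratio of -1.06. GP2, a glycoprotein held at the membrane by a lipid anchor, had -8.71 from a single probe (15 in mastitis tissue and 3827 in normal tissue), the casein gene CSN2 -7.53 (SD 2.21, 5 probes), the desaturase gene SCD -4.79 (SD 0.39, 6 probes) and GPAM, which starts glycerolipid synthesis, -2.64 (SD 0.18, 3 probes). FOLR1, the folate receptor, and LPIN1, a phosphatidate phosphatase, were at least 21.9-fold and 2.05-fold lower, passing the threshold in normal tissue alone. FOLR1 had net signals of 4 in mastitis tissue and 107 in normal tissue. LPIN1 had 1 in mastitis tissue and 10 in normal tissue, close to the threshold. LALBA, given above, had the largest bound of the list. Among the regulators of lactation, ELF5 had -2.22 (SD 0.008, 2 probes), STAT5A -1.11 (SD 0.30, 2 probes) and PRLR -0.71 (SD 0.08, 2 probes). Of the 15 partner genes within 2-fold, chosen for contrast after their values were seen, ANXA2 had 0.09 (SD 0.17, 3 probes), SNAP23, of vesicle fusion, -0.19 (SD 0.42, 3 probes), CLTC, the clathrin heavy chain, -0.19 (SD 0.67, 3 probes) and VAMP3 -0.25 from a single probe.

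Markers of luminal epithelium as a whole were not lower to the same extent. The list does not single out the secretory cells that make the globule, so the share of those cells was not tested. Of 18 measured, 2 were called lower and none higher, with a median of -0.30. The largest differences were those of the protease gene ST14 (-1.42, SD 0.14, 3 probes), PRSS8 (-1.03, SD 0.20, 2 probes), SPINT1 (-0.97) and KRT18 (0.97, SD 0.13, 3 probes). EPCAM had a ratio of 0.12 and KRT8 of 0.36. Their summed scaled signal was 296 in mastitis tissue and 383 in normal tissue. Set against the median of these markers, FABP3 was 82.6-fold, BTN1A1 56.2-fold, MUC15 12.3-fold, MUC1 8.59-fold, MFGE8 3.48-fold, PLIN2 3.28-fold and XDH 2.87-fold lower on the mastitis array, and CD36 was 1.15-fold lower. Such differences do not depend on the scaling by a constant, but they do depend on the probes and the background correction. On the log2 scale, that of BTN1A1 was -1.86 with net signals of at least 50 on both arrays. It was -9.79 with the brightest probe of each gene. That of MUC1 was -1.86 with normexp and -4.22 with the brightest probe. Myoepithelial markers had a median of 0.21 with 2 of 9 called lower, namely ACTG2 (-1.26, SD 1.14, 3 probes) and CNN1 (-1.01, SD 0.75, 2 probes). KRT5 (0.99, SD 0.35, 2 probes) and KRT17 (0.80, SD 1.19, 2 probes) went the other way. Without scaling no myoepithelial marker was called lower, and with spike-in scaling 2 were called higher. Fibroblast markers had a median of 0.16 with 1 of 8 called lower (COL3A1, -1.09) and 1 higher (FBLN1, 2.82-fold).

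**Figure D4:**
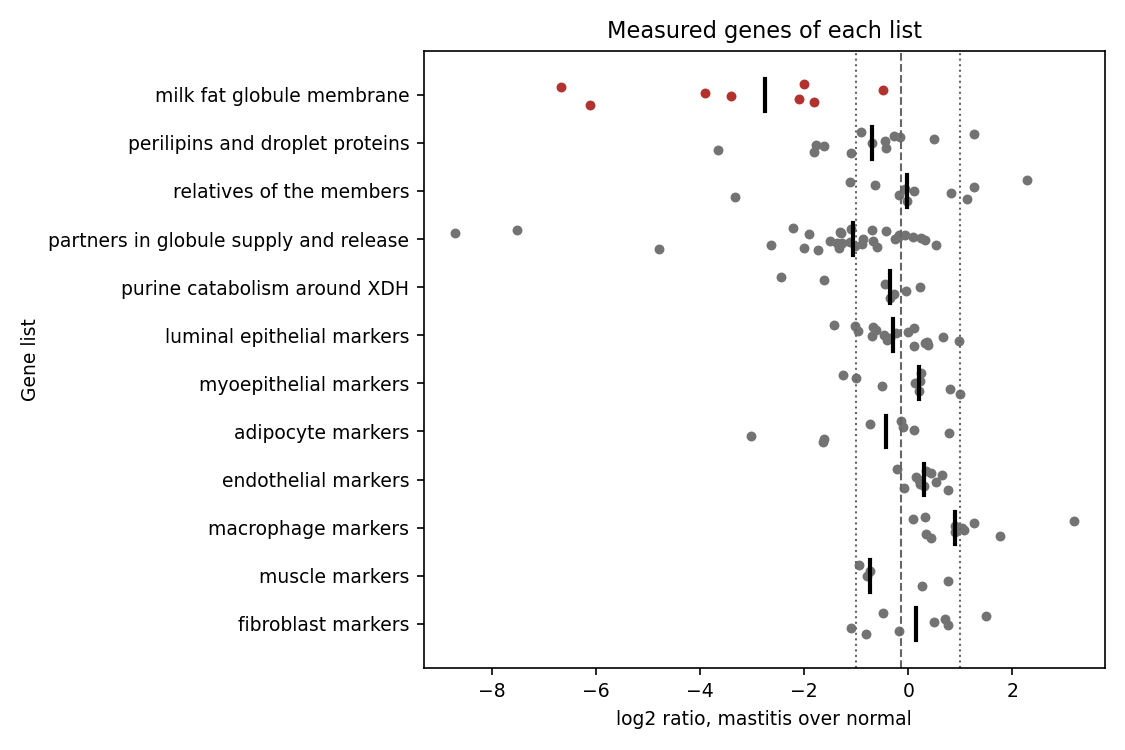
Log2 ratio of mastitis over normal (horizontal axis) of each measured gene in the milk fat globule membrane group (red) and in 11 other lists (grey), with bars at list medians. Vertical spread within a list has no meaning. The dashed line stands at the all-gene median of -0.15 and dotted lines at 2-fold. The median of the group is -2.75, those of luminal epithelial and macrophage markers are -0.30 and 0.90.

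The relatives of the group had a median of -0.03 over 11 measured genes, of which 2 were called lower and 3 higher. With normexp 1 was called lower and 1 higher, and with dim probes kept 5 were called lower and 2 higher. AOX1, the aldehyde oxidase related to XDH, had a log2 ratio of 1.13 (SD 0.14, 3 probes), opposite to XDH. BTNL9, a relative of butyrophilin, had -0.03 (SD 0.10, 2 probes), and BTNL2 passed the threshold in neither tissue.

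The number of members called lower was also 7 without scaling, with spike-in scaling and with limma's normexp background correction. Without scaling, every ratio is 0.71 higher and the median of all genes is 0.57 in place of -0.15, and the counts over all genes become 331 lower and 2524 higher in place of 1137 lower and 286 higher. Spike-in scaling raises every ratio by 0.25, with 717 lower and 598 higher. Ratios between -0.71 and 0 thus turn positive without scaling, among them the median of the luminal epithelial markers, which became 0.42 and was also above 0 with quantile normalization (0.06). Without scaling, 5 luminal epithelial markers were called higher and none lower, and with spike-in, median or quantile scaling 1 was called higher and 1 lower. Without scaling, 10 macrophage and 6 endothelial markers were called higher. Of the partner genes 8 were called lower and 2 higher without scaling, and of the relatives 1 was called lower and 4 higher. XDH then had a ratio of -1.10, the nearest of the 7 to 2-fold, and MFGE8 and PLIN2 had -1.38 and -1.29. LOC518526 was within 2-fold with normexp (0.89).

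**Figure D5:**
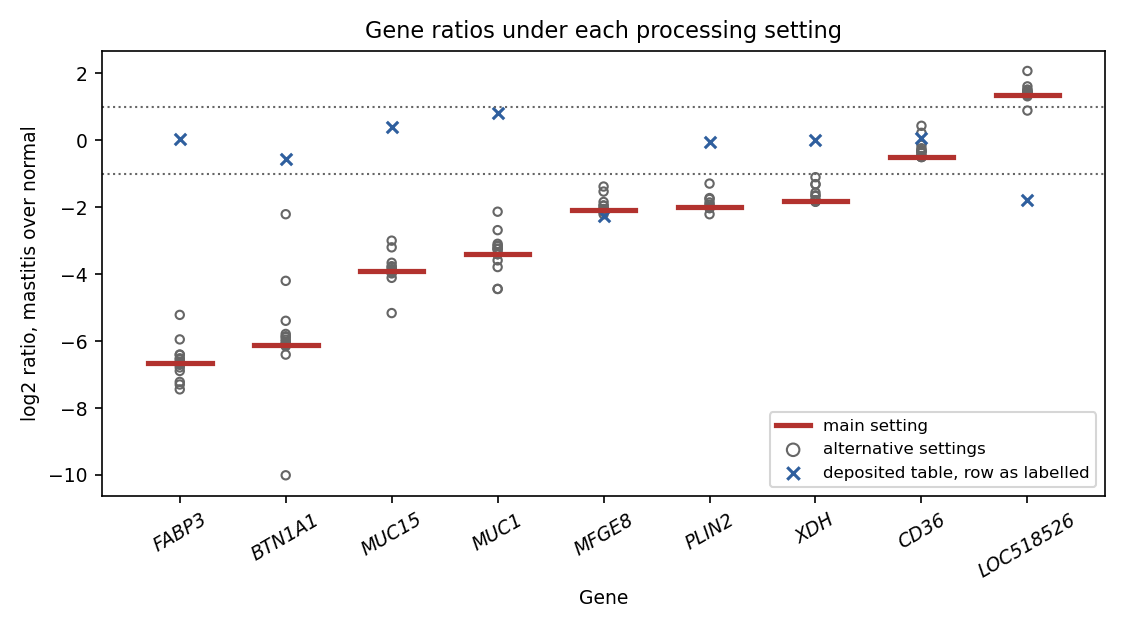
Log2 ratio of mastitis over normal (vertical axis) of each gene in the main setting (red bars), under the other processing settings (open circles) and in the authors' deposited table at the row as labelled (crosses). Dotted lines mark 2-fold. Circles of the 7 lower genes all lie below the lower line, the nearest being XDH at -1.10, while the crosses lie apart from the circles for most genes.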

How the data were processed

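Total RNA of mammary tissue was labelled with Cy3 and hybridized to 1 array for mastitis tissue and 1 for normal tissue. The file headers name an Agilent bovine array (design 023647) read with GenePix Pro 6.1, whereas Agilent Feature Extraction appears in the submitters' processing notes and an Affymetrix chip in the methods. The authors deposited the intensity of each spot at 532 nm less the mean of the negative controls, unscaled, with a score of signal over noise, the percent of pixels saturated and flags. The authors' deposited log2 table has no stated method; its rows matched the scanner values 1 probe further on in sorted order (Spearman correlation 1.00 across probes, which are not replicates) and not their own (0.10), so it served as an alternative only.

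Control spots were left out and spots of a probe averaged. Saturated spots were kept. Flags of spots not found counted as not above background. The median pixel signal was divided by the 75th percentile of each array. Of 43653 probes, 26743 were named by the accession of the probe, 1819 by a further accession in the files, 5113 by symbol and 138 by synonym in a RefSeq table of ARS-UCD2.0, used for names and gene neighbours only; 1388 kept their deposited name, and 8452 stayed unnamed. With 1 array per condition no test was possible, and their number limits the precision. Genes at least 2-fold apart were counted. A gene on 1 array alone was given a bound.

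The members and lists were chosen with earlier results of these data known. Named were all members and, per list, up to 4 genes with the largest ratios, those with a bound of at least 2-fold, and relatives of a member. Further genes were named after their values were seen, as the markers of the tissue or for contrast. The method was tested on simulated data. Alternatives covered scaling, normalization, background correction (limma 3.58.1 in R 4.3.3, normexp, offset 50), filters and probe rules. Pixel means, local background, net signals moved by 1 SD of the negative controls, and CD36 over all its named probes were added after seeing the data. Values came from Python 3.11.15 (pandas 2.3.3, numpy 2.4.6, scipy 1.17.1), and plots from matplotlib 3.10.9.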

Additional observations from a re-analysis of the deposited data

How the results depend on the processing

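The 7 genes were at least 2-fold lower under 18 of the 19 alternative settings, the exception being the deposited table at the row as labelled, where 1 gene (MFGE8) was. In that table the ratios of MUC1, MUC15 and FABP3 turned to 0.81, 0.40 and 0.0325 (0.81, 0.39 and 0.0288 above the epithelial median), that of LOC518526 to -1.79 and the median of the group to 0.0163; with its rows moved by 1 probe they kept their direction. The median of the group was -2.03 without scaling, -1.93 with normexp, -2.15 with net signals of at least 50 on both arrays and -3.23 with the brightest probe of each gene. BTN1A1 depended most on the probes, from -2.21 with net signals of at least 50 to -10.01 with the brightest probe, and was -4.20 with normexp, while FABP3 lay between -5.22 and -7.44 outside the deposited table. Over all genes the count at least 2-fold lower, 1137, went between 331 without scaling and 3365 with dim probes kept, and that of higher genes, 286, between 97 with normexp and 2524 without scaling. With normexp 11 partner genes and 2 droplet protein genes counted as lower, and without scaling 8 and 3, against 17 and 5 in the main setting. The causes were not tested. No paired analysis was possible because each condition has 1 array, and no replicate could be left out. Signals close to the thresholds limit the sizes for BTN1A1 and MUC1, and a low score of signal over noise limits that for MUC15.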
